A study of Mus musculus with 4 samples.

Results

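In the irradiated adult library, cells that carried the transcript of the green fluorescent protein reporter were set beside cells in which that transcript was not seen. The cells were chosen by the reporter count itself. A cell entered with at least 500 detected genes, at most 20% mitochondrial UMIs (unique molecular identifiers, which count captured RNA molecules) and at least 5000 UMIs in all. It was called positive with at least 1 UMI of the feature eGFP and negative with 0. Of 2135 cells that met the filter, 419 were positive and 1716 negative. The 4 libraries of the series held 11128 cells under the same filter. The values of eGFP that divide the cells are therefore a description and support nothing.

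All 4 libraries came from the intestinal epithelium of Bmi1-GFP reporter mice, at embryonic days 12.5 and 17.5, in adults and in irradiated adults, with 1 library per group. The animals of every group, controls included, carry the reporter allele. The series text says that Bmi1-expressing cells were sorted by flow cytometry, so eGFP-negative means that no reporter transcript was captured, not that the cell came from outside the sort. The sources used here do not give the irradiation dose, the time from irradiation to sampling, how many mice were used, or the gates of the sort. With 1 library, no difference below has a replicate check or a test, and the cells of a library are not replicates. Intervals are exact 95% intervals and cover counting error only.

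Bmi1 encodes a subunit of Polycomb repressive complex 1, which keeps developmental genes and cell cycle inhibitors silent through modification of histone H2A. In the small intestine, Bmi1 reporters were introduced to mark slow-cycling reserve stem cells, and Bmi1 transcripts are also well known in hormone-secreting enteroendocrine cells and in chemosensory tuft cells. After radiation damage, the surviving crypt epithelium re-enters the cell cycle and expresses a fetal-like set of genes such as Clu, Ly6a and the annexins.

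The reporter line is named for Bmi1 (chromosome 2, 18677018 to 18686629, plus strand, GENCODE M21 on GRCm38), so the region just before that gene's start is shown; how the reporter allele is built is not given in the sources used here. It holds the 250 bases upstream of the RefSeq start site on build GRCm38.p6, chr2:18676768-18677017, plus strand, 5′ to 3′. Capitals mark an E-box, CACGTG, the palindromic site of basic helix-loop-helix factors, which begins 215 bases before the start.
Bmi1: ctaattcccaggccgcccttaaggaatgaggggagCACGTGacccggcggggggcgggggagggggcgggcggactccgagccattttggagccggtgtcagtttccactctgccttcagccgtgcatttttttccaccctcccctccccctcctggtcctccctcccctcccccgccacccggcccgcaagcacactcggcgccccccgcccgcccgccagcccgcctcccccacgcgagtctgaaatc
G and C made up 70.4% of this stretch, against a median of 52.4% over 32851 RefSeq promoter stretches of the same length. The E-box occurred in 6.02% of those stretches, and the GC box GGGCGG, found here 3 times on each strand, in 32.7% (both strands searched). The TATA box TATAAA was in 12.4% of them and not in this one. These letters are a description of the window and say nothing of which factor binds there.

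Reporter transcripts were sparse. Among the 419 positive cells, 351 held 1 eGFP UMI, 63 held 2 and 5 held 3. Summed over all cells of the filter, eGFP stood at 12.6 counts per 1000000 UMIs (CPM; interval 11.5 to 13.8) and Bmi1 at 14.4 CPM (13.2 to 15.6). The median depth of a cell was 12829 UMIs, so that at this level 0 eGFP UMIs does not show that a cell lacked the transcript. Just below the depth threshold, 2 of 54 barcodes from 4500 to below 5000 UMIs had an eGFP UMI, and just above it 3 of 55 cells from 5000 to below 5500 UMIs. A Bmi1 UMI was seen in 21.7% of cells with no eGFP UMI, 22.8% of those with 1 and 29.4% of those with 2 or more, at median depths of 12075.5, 14960.0 and 17919 UMIs.

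The share of positive cells followed depth. It was 11.5% (85 of 741) in cells from 5000 to below 10000 UMIs, 21.1% up to 20000, 27.6% up to 50000 and 39.0% (48 of 123) at 50000 or more. The reporter's level in CPM did not follow that order: it was 15.9, 17.2, 12.3 and 5.42 CPM in the same 4 ranges. Positive cells were accordingly deeper, with a median of 15955 UMIs. When every cell was thinned at random to 5000 UMIs, 154 of 2135 cells (7.21%, 6.15 to 8.39) were positive, against 19.6% (18.0 to 21.4) without thinning.

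**Figure D1:**
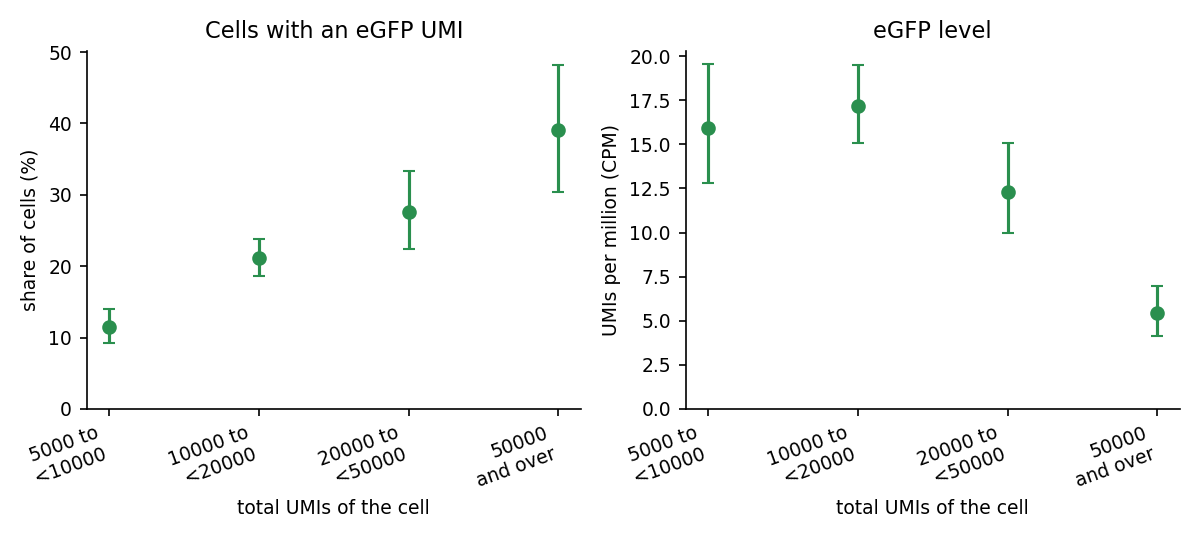
Share of cells with an eGFP UMI (left, percent) and eGFP level (right, CPM) in 4 ranges of total UMIs per cell in the irradiated adult library. Points are values over all cells of the range and bars are exact 95% intervals (binomial on the left, Poisson on the right). The share climbs from 11.5% to 39.0% while the level is lowest, at 5.42 CPM, in the deepest cells.

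The level of eGFP UMIs was then taken by cluster. No cell type known to lack the reporter was at hand to set a background share. Barcodes under the filter also held eGFP, at 12.2 CPM (4.91 to 25.2, 7 UMIs) from 500 to below 1000 UMIs. The level was 9.71 CPM from 1000 to below 2000 UMIs and 7.88 CPM (5.70 to 10.6, 43 UMIs) from 2000 to below 5000. Whether these barcodes held free RNA was not tested, so 1 eGFP UMI cannot be told apart from free RNA. Clustering without eGFP and Bmi1 gave 16 clusters. Of these, 11 (1573 cells) carried enteroendocrine markers and are called enteroendocrine-like. In them eGFP stood at 16.8 CPM and Bmi1 at 19.9 CPM, and 7.69% of thinned cells were positive (18.6% unthinned). Tuft-like cells (cluster 7, 125 cells) had close values, 17.6 CPM of eGFP and 20.4 CPM of Bmi1. Paneth-like cells (cluster 11, 82 cells), which make antimicrobial defensins, had the lowest eGFP level, 2.89 CPM (1.79 to 4.42), beside 3.17 CPM of Bmi1. Yet 25.6% of Paneth-like cells counted as positive without thinning, at a median depth of 101416.5 UMIs. After thinning, 0 of 82 did, with an exact interval up to 4.40%.

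Goblet-like cells (cluster 15, 56 cells), which make mucus, had eGFP at 11.0 CPM (6.72 to 16.99) and Bmi1 at 2.20 CPM (0.599 to 5.63, 4 UMIs), so that the intervals did not overlap. Cluster 9 (103 cells, median 50555 UMIs) took no class name. Its leading genes were Ccnd1, Lgals3, Ces2e, Clu, Ube2c, Prap1, Ly6a, Gpx2, Gsta1 and Areg. It held 9.19 CPM of eGFP and 6.54 CPM of Bmi1, and 36.9% of its cells were positive before thinning and 9.71% after. Cluster 3 (196 cells) showed tuft and enteroendocrine markers together, and 48 of its cells were putative doublets. Here Bmi1, at 23.9 CPM (18.8 to 30.1), stood above eGFP, at 13.9 CPM (10.1 to 18.7). Across the 16 clusters, which share the library and differ in depth, Spearman's rho was 0.656 between the levels of eGFP and Bmi1 and -0.582 between that of eGFP and the median UMIs of a cluster.

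**Figure D2:**
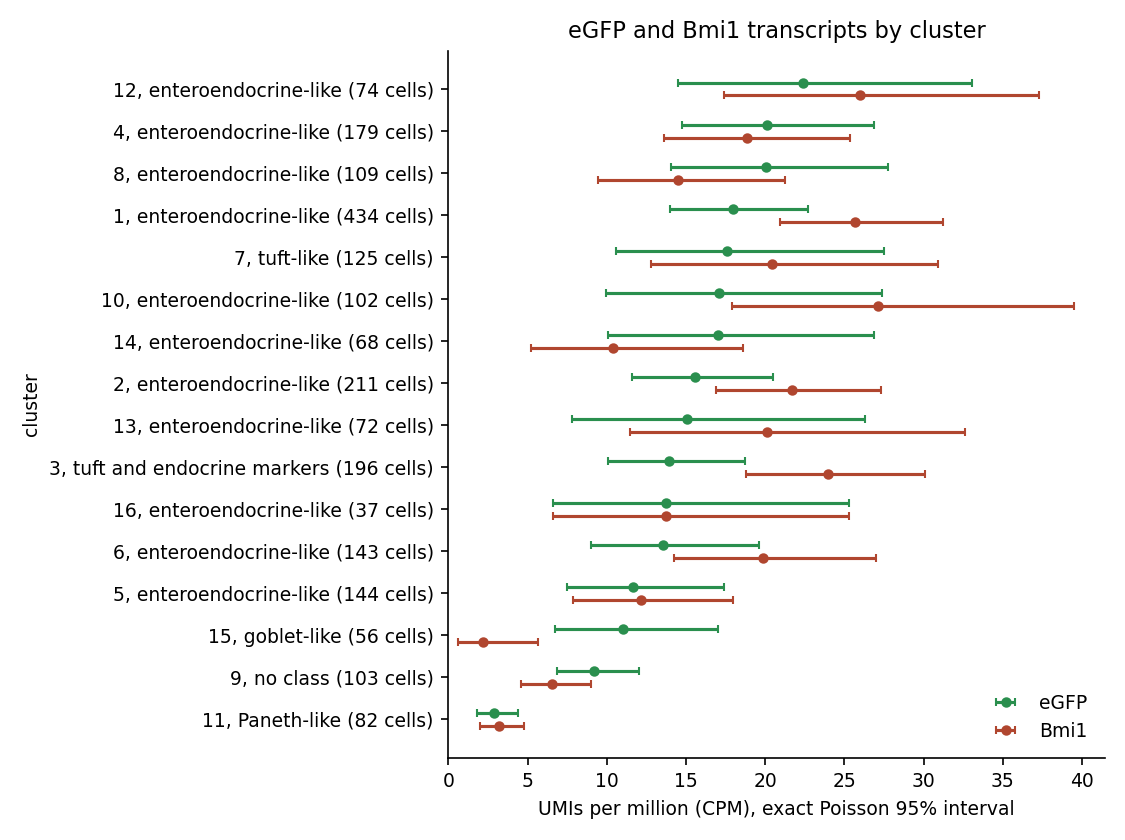
Levels of eGFP (green) and Bmi1 (red) in CPM for each of 16 clusters of the irradiated adult library, ordered by eGFP. Bars are exact Poisson 95% intervals. Paneth-like cluster 11 has the lowest eGFP level, 2.89 CPM, and the intervals of eGFP and Bmi1 do not overlap in goblet-like cluster 15 and in cluster 3.

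Because positive cells were deeper, each was paired with the unused negative cell nearest in total UMIs, within 5%. This left 416 pairs, with 10090658 UMIs on the positive side and 10017555 on the negative, and median depths of 15913 and 15915.5 UMIs. Cells over 100000 UMIs, 15 on each side, held 18.5% of positive and 18.2% of negative UMIs. Putative doublets numbered 30 on each side. None of the 2135 cells shared a barcode with a cell of the filter in the adult library, 3 did with one at E17.5 and 1 at E12.5.

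The cell classes on the 2 sides were close. Enteroendocrine-like clusters held 292 of 416 positive cells (70.2%) and 290 of 416 negative cells (69.7%). Tuft-like cells numbered 16 and 10, and goblet-like cells 15 and 17. Among the others, cluster 9 held 37 positive and 31 negative cells, and the Paneth-like cluster 19 and 30. In each of the 16 clusters the 2 intervals overlapped. Cells of the last 2 are deep: cluster 9 gave 22.9% of positive and 17.7% of negative UMIs, and the Paneth-like cluster 20.02% and 26.4%.

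**Figure D3:**
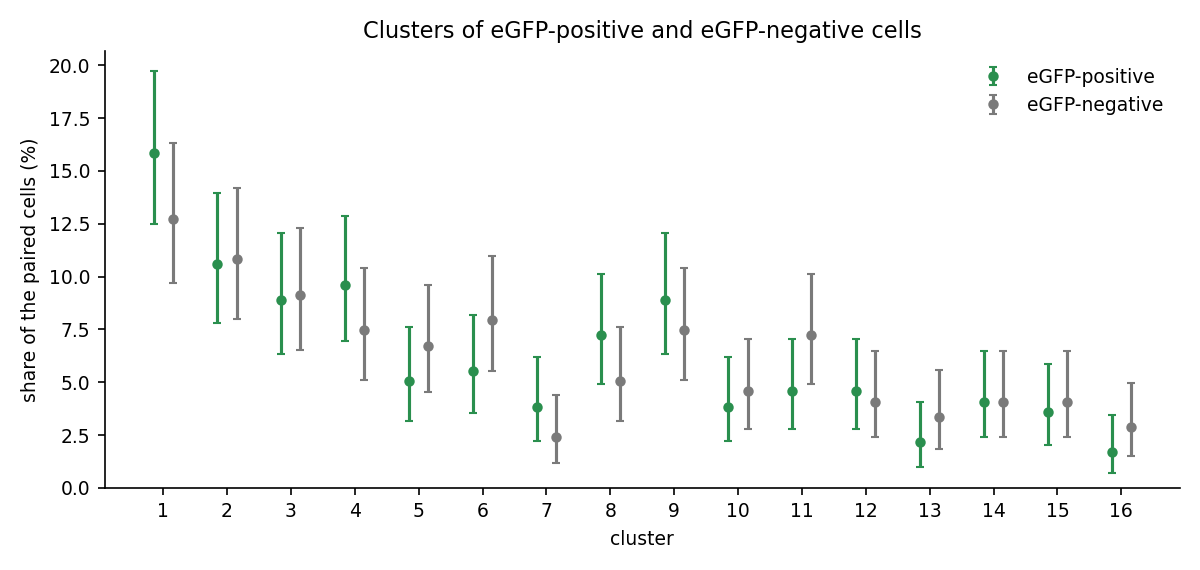
Share (percent) of the 416 eGFP-positive (green) and 416 eGFP-negative (grey) paired cells in each of 16 clusters, with exact binomial 95% intervals. The intervals of the 2 sides overlap in every cluster; the Paneth-like cluster 11 holds 19 positive and 30 negative cells.

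Bmi1 itself did not separate the sides. The paired positive cells held 125 Bmi1 UMIs in 100 cells, 12.4 CPM (10.3 to 14.8). The negative cells held 110 UMIs in 97 cells, 11.0 CPM (9.02 to 13.2). The log2 ratio, taken as log2 of (CPM + 1) positive over negative here and below, was 0.16, beside a median of 0.09 over all genes counted. With pairs drawn within clusters it was -0.08, and within the enteroendocrine-like clusters alone, where 74 UMIs stood against 77, it was -0.06.

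Few genes differed in level by 2-fold. Of 9872 genes with at least 100 UMIs over both sides, 24 (0.243%) were at least 2-fold higher in positive cells and 4 (0.0405%) at least 2-fold lower. In 20 of the 24 higher genes, most UMIs of the paired cells lay in cluster 9. In 18 of the 24, under 10% of positive cells had a UMI, and in 13, a single cell gave at least 25% of the positive UMIs. With every cell weighted equally, as the mean of each cell's CPM, 10 genes were higher and 6 lower. Without the cells of cluster 9, 6 were higher and 4 lower, and 4 of the original 24 (Alb, Sval1, Hbb-bs and Ltb) were among them, while 7 (Serpinb5, Il1rn, Sprr2a3, Cdc20, Rbp7, Anxa8 and Gsta1) were on the other side of 0. With the highest cell of each gene left out on each side, 14 were higher and 3 lower. Without cells over 50000 UMIs, 14 were higher and 31 lower.

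**Figure D4:**
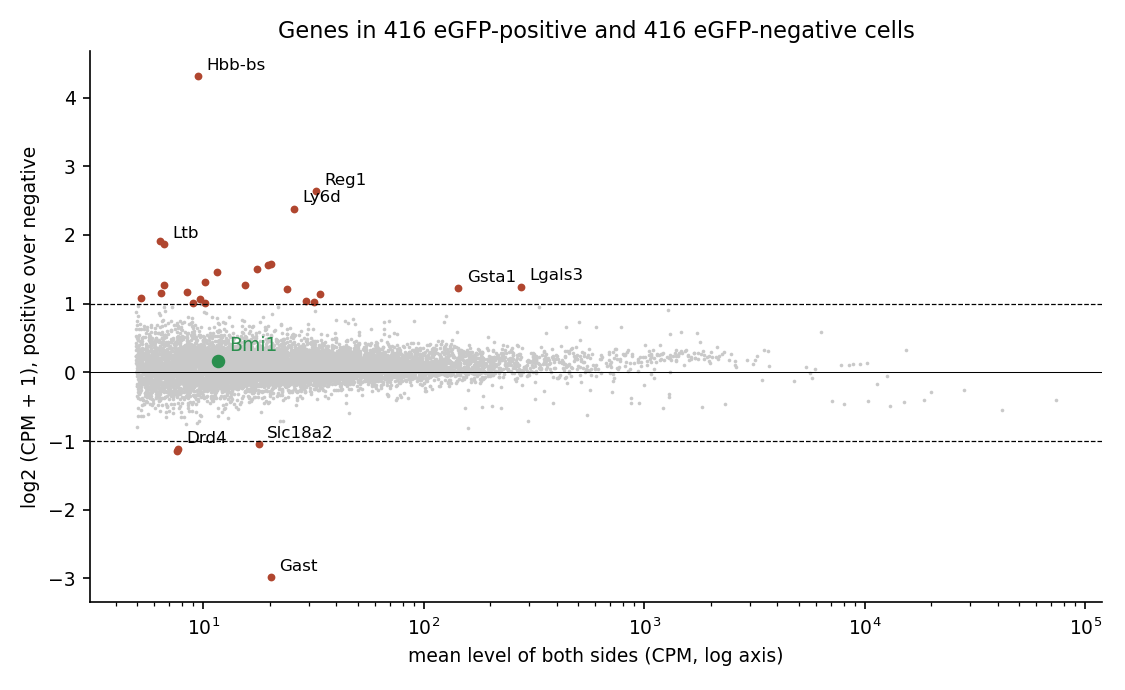
Log2 ratio of (CPM + 1), positive over negative, against mean level (CPM, log axis) for each gene counted in 416 eGFP-positive and 416 eGFP-negative cells. Red points are the 24 genes at least 2-fold higher and the 4 at least 2-fold lower, dashed lines mark 2-fold, and Bmi1 (green) lies near 0, at 0.16.

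Most of the higher genes had their UMIs in cluster 9. Lgals3, which encodes the glycan-binding protein galectin-3, had 3911 UMIs in positive and 1628 in negative cells, 388 CPM (376 to 399.9) against 163 (155 to 171), a log2 ratio of 1.25. It was detected in 146 positive and 123 negative cells, so the share of cells differed less than the level. Cluster 9 gave 90.8% of its positive and 85.9% of its negative UMIs. Ly6d, a lipid-anchored surface protein of the Ly6 family, had 442 UMIs in 17 positive cells and 76 in 14 negative cells (log2 ratio 2.38), and cluster 9 gave 99.3% and 96.05% of them. Reg1, a secreted regenerating-islet lectin, had 571 UMIs in 28 cells against 83 in 25 (2.63), with 36.3% of the positive UMIs in 1 cell. Of these, cluster 9 gave 548 UMIs in 6 positive cells and 64 in 8 negative cells.

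Further genes of this kind had lower levels. Anxa8 and Anxa1, membrane-binding annexins, stood at 30.7 against 9.68 CPM and at 22.2 against 8.58 CPM, and cluster 9 gave 97.9% and 94.2% of their UMIs on the negative side and more on the positive. Il1rn, the antagonist of the interleukin-1 receptor, stood at 26.5 against 8.68 CPM. The cornified envelope gene Sprr2a3 stood at 34.0 against 14.1 CPM. Serpinb5 (maspin, a serpin of epithelial cells) stood at 39.6 against 18.9 CPM, and the actin-capping gene Capg at 46.9 against 20.7 CPM. Each of these was detected in more positive than negative cells: 25 and 21 for Anxa8, 26 and 17 for Anxa1, 34 and 33 for Il1rn, 33 and 28 for Sprr2a3, 60 and 52 for Serpinb5, 82 and 62 for Capg.

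Enzymes of detoxification were among the 24 too. The glutathione transferase Gsta1 had 2034 UMIs in 58 positive cells and 856 in 51 negative cells, a log2 ratio of 1.23, but 1 cell gave 37.3% of the positive UMIs. Its direction depended on the cells drawn: it was -0.16 with pairs within 1% of total UMIs, -0.57 without cells over 50000 UMIs and -0.45 without cluster 9. The aldo-keto reductase Akr1b8 stood at 43.0 against 20.7 CPM, with 29.7% of its positive UMIs in 1 cell. The other higher genes led by cluster 9 were Gm3776, with a log2 ratio of 1.56, Cysrt1 with 1.27, Rbp7 with 1.18, Gtse1 with 1.15 and the laminin chain gene Lama3 with 1.08, besides the replication and mitosis genes described below.

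A few of the 24 came from 1 cell or a handful. Hbb-bs, a haemoglobin chain of red blood cells, had 191 UMIs in 3 positive cells, 97.4% of them in 1 cell, and 0 in negative cells. Against the 3 UMIs that a count of 0 allows this is a difference of a single cell. Of the 5 red blood cell markers, Hba-a1, Hba-a2 and Hbb-bt were at 0 in positive cells and Alas2 had 5 UMIs there. Ltb, a lymphotoxin of lymphocytes, had 111 UMIs against 23, with 82.9% in 1 Paneth-like cell; of the 14 immune markers 7 were at 0 on both sides, and the list summed to 266 and 219 UMIs. Alb, the albumin gene, had 175 UMIs against 57, with 66.9% in 1 cell, and cluster 6 gave 87.4% of the positive UMIs. Sval1 had 107 UMIs in 8 cells against 21 in 8, of which the goblet-like cluster gave 99.1% and 85.7%.

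For each of the 4 lower genes, the cluster with the most UMIs of the paired cells was enteroendocrine-like, though other clusters held UMIs too. Slc18a2, which loads monoamines into vesicles, had 114 UMIs in 46 positive cells and 244 in 55 negative cells (log2 ratio -1.04). Cluster 6, which also led with Tac1, Trpa1 and Reg4, gave most of its UMIs on both sides. That cluster held 23 positive and 33 negative cells of the pairs. Olfr558, an olfactory receptor also used by enterochromaffin cells, had 44 UMIs against 109, and Drd4, a dopamine receptor, 45 against 109. Gast, the gastrin gene, had 38 UMIs in 30 cells against 368 in 23, but 91.6% of the negative UMIs were in 1 cell. Within clusters none of the 4 was 2-fold lower: the log2 ratio was -0.67 for Slc18a2, -0.96 for Olfr558, -0.74 for Drd4 and 0.22 for Gast.

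Under 2-fold, the genes highest in positive cells by the naming rule were Rbp2 and Fabp1, which carry retinol and fatty acids in absorptive cells, Edn1, Isg15, Tyms and Ly6a. Rbp2 stood at 438 against 225 CPM, in 251 and 240 cells, and Fabp1 at 1668 against 889 CPM, in 334 and 347 cells. For Fabp1 the number of positive cells with the gene was thus lower, and 24.6% of the positive UMIs came from 1 cell. Ly6a (Sca-1), a marker of regenerating crypts, stood at 162 against 91.2 CPM, in 103 and 83 cells. Isg15, an interferon-induced gene, stood at 41.8 against 22.1 CPM, with 38.6% of its positive UMIs in 1 cell, and its log2 ratio turned to -0.50 within clusters. Without cells over 50000 UMIs, the log2 ratios were -0.22 for Rbp2, -0.14 for Fabp1, -0.056 for Isg15 and -0.047 for Ly6a, so that none of these 4 kept its direction.

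By the same rule the lowest genes in positive cells were of 2 kinds. Pnliprp2 (a lipase of Paneth cells), Thbs1 and the chemokine Ccl6 had log2 ratios of -0.81, -0.71 and -0.71, and lay mainly in the Paneth-like and goblet-like clusters. Among the others, Shprh, a ubiquitin ligase of DNA damage tolerance, had 99 UMIs in 77 cells against 161 in 120. Bcl2, the anti-apoptotic gene, had 60 in 52 against 107 in 76, and Bcorl1, a co-repressor of a Polycomb complex, 75 in 65 against 121 in 100. Tspyl4 had 90 UMIs in 80 cells against 144 in 109. In these 4, no cell gave more than 4.0% of either side's UMIs. Within the enteroendocrine-like clusters the log2 ratios were -0.45 for Shprh, -0.70 for Bcl2, -0.68 for Bcorl1 and -0.44 for Tspyl4. The remaining 5 of the 12 lowest, Zfp30, Creld1, Platr26, Mxra7 and Slc18a2, lay between -0.63 and -1.04, and Platr26, like Slc18a2, had more of its negative UMIs in cluster 6 (33.3%) than in any other.

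In the pairing on total UMIs, genes of DNA replication stood above the all-gene median. All 14 counted members of the S phase list (of 17) were above 0, with a median log2 ratio of 0.61, and 3 of 14 were 2-fold higher, against 0.243% of all genes. Rrm2, a subunit of ribonucleotide reductase, had 150 UMIs in 28 positive cells and 54 in 17 negative cells. Mcm5 and Mcm6, of the replicative helicase, had 135 UMIs in 26 cells against 59 in 18, and 124 in 46 against 56 in 41. Tyms, thymidylate synthase, had 269 in 83 against 144 in 71. Pcna, the sliding clamp, differed least but one, with 246 against 207 UMIs, and was in fewer positive than negative cells (128 and 141). Without cluster 9 the median of the list was 0.20. After thinning to 5000 UMIs, Rrm2, Mcm5 and Tyms were on the other side of 0 (Tyms at -0.09), while Mcm6 stood at 0.36. In the enteroendocrine-like clusters only 3 members were counted, with a median of -0.01. Within cluster 9 itself, over 32 pairs, the list summed to 821 against 551 CPM.

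Genes of G2 and mitosis were less uniform. Of 12 counted members (of 15), 10 were above 0 and the median was 0.37. Cdc20, which activates the anaphase-promoting complex, had 140 UMIs in 21 cells against 64 in 17, and was the one member past 2-fold. It was on the other side of 0 with pairs within 1% of total UMIs, after thinning, without cells over 50000 UMIs and without cluster 9, 4 of 21 settings. Birc5 (survivin) had 237 against 145 UMIs and Cdk1 178 against 120. Mki67, the usual label of cycling cells, had 171 UMIs in 27 positive cells and 194 in 22 negative cells. With pairs within 1% of total UMIs the median of this list turned to -0.24, and with every cell weighted equally it was 0.16. It was higher under other settings: 0.81 without cluster 9, 0.85 with at most 10% mitochondrial UMIs and 1.10 without pairing. With positive cells at 2 eGFP UMIs it was 1.32. Within cluster 9 the list summed to 996 against 742 CPM.

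The regenerating epithelium list had 13 counted members of 17, of which 12 were above 0 and 1 past 2-fold, with a median of 0.59. Anxa2, Anxa3 and Areg, an epidermal growth factor receptor ligand, stood at 633 against 381, 82.5 against 49.1 and 154 against 91.9 CPM. Clu, a defining gene of revival cells, differed little, with 61.2 against 53.8 CPM in 55 and 45 cells. Cyr61, a target of the YAP pathway, was lower, 24.4 against 31.8 CPM. Within clusters the median was 0.28 and no member reached 2-fold. Without cluster 9 it was 0.10, beside an all-gene median of 0.05 in those pairs.

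Targets of p53, the factor that radiation activates, differed little. The list of arrest and feedback genes had a median of 0.19 over 17 members, with 1, Gtse1, past 2-fold. Of the 17, 15 were above 0 and 11 above the all-gene median of 0.09. Cdkn1a, the p21 inhibitor, was seen in 415 positive and 416 negative cells, at 876 and 850.3 CPM (log2 ratio 0.04). Mdm2 stood at 103 and 81.2 CPM, Btg2 at 766 and 730.0 CPM, and Gdf15 at 103 and 83.8 CPM. The cell death targets had a median of 0.21 over 12 members and none past 2-fold. Among them Bax stood at 346 and 301 CPM and Bbc3 (Puma) at 35.8 and 33.7 CPM.

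Most Polycomb and stem cell genes lay close on the 2 sides. The 19 counted genes of Polycomb repressive complex 1 lay between -0.16 and 0.20, with a median of 0.03. Rnf2 and Ring1, its catalytic subunits, had 128 against 114 and 161 against 145 UMIs. The complex 2 list had a median of 0.12 and none past 2-fold. Cdkn2a, the classic target that Bmi1 represses, had 0 UMIs on both sides, and Cdkn1c had 1740 against 1417. Of the crypt base stem cell list, Lgr5 had 60 UMIs in 42 cells against 73 in 40, Olfm4 136 against 136, and Ascl2 65 against 66. The reserve stem list had a median of 0.04 over 6 counted members, with none past 2-fold. Of the 6, 5 were above 0 but only 2 above the all-gene median of 0.09. Hopx stood at 343.5 and 333.7 CPM, Lrig1 at 12.7 and 10.8 CPM, and Tert at 20 and 21 UMIs. Krt19, a keratin and the highest member, stood at 2063 and 1519 CPM (0.44), and with it the list summed to 2555 against 1999 CPM.

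Secretory programmes differed by lineage. Enteroendocrine transcription factors had a median of 0.04 over 16 members, between -0.26 and 0.23; Neurod1 stood at 391 and 413 CPM. Granins and prohormone enzymes had a median of -0.04, with Chga at 3288 and 3538 CPM. The hormone and amine list had a median of 0.12, with 8 of 15 above 0 and 1 member, Slc18a2, past 2-fold lower. Among its hormones, Ghrl (ghrelin) stood at 7616 against 5071 CPM and Gip at 17051 against 13671 CPM, whereas Cck stood at 25771 against 30830 CPM and Sct (secretin) at 17874 against 21820 CPM. Tuft genes had a median of 0.26, with 14 of 15 above 0 and none past 2-fold, beside 16 positive and 10 negative tuft-like cells. Paneth genes had a median of -0.42, with 2 of 11 above 0, beside the 19 and 30 Paneth-like cells, and the list summed to 125500 CPM on the positive and 170800 CPM on the negative side. Goblet genes had a median of -0.21, with 3 of 12 above 0, beside 15 and 17 goblet-like cells; Zg16 stood at 6094 against 8100.5 CPM. Their share in the ratios of other genes was not tested.

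**Figure D5:**
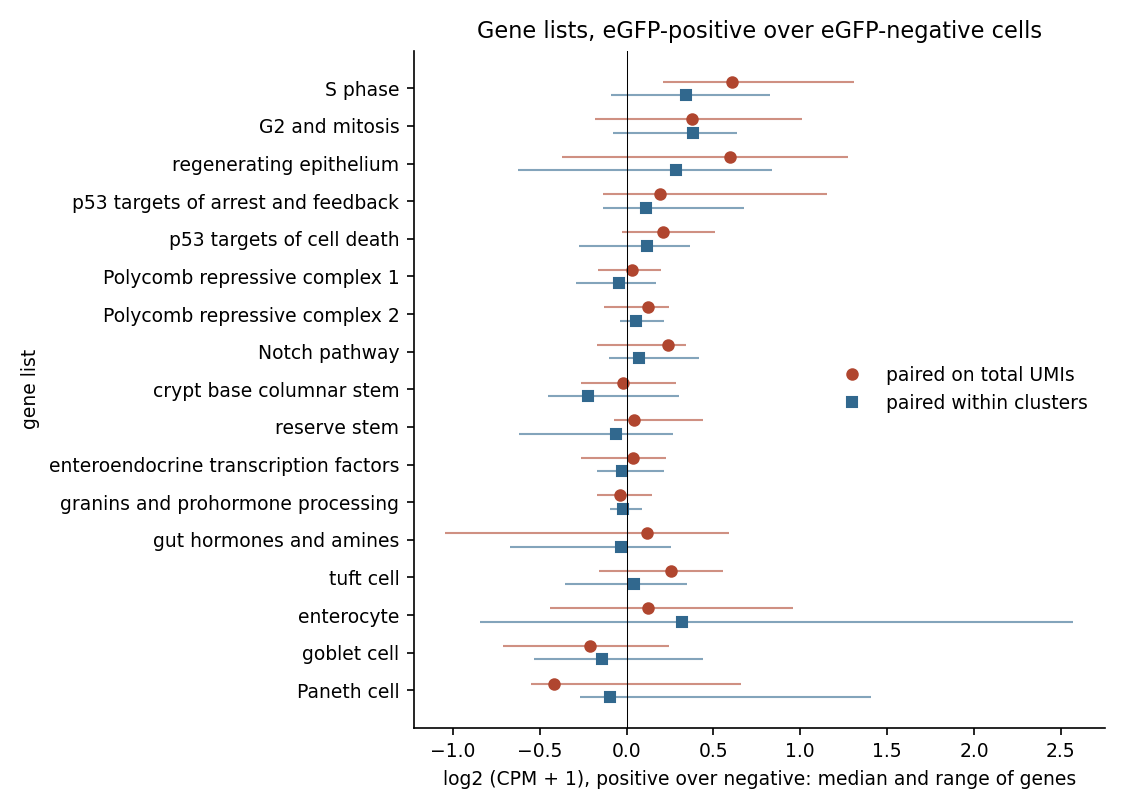
Median (symbol) and range (line) of the log2 ratio of (CPM + 1), positive over negative, over the counted genes of 17 lists, with pairs matched on total UMIs (red circles) or within clusters (blue squares). The S phase median goes from 0.61 to 0.34, the regenerating epithelium median from 0.59 to 0.28 and the Paneth median from -0.42 to -0.10 when pairs are drawn within clusters.

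Pairs drawn within clusters, 386 in all, left fewer differences. Of 9600 genes counted, 12 (0.125%) were at least 2-fold higher in positive cells and 0 (0.0%) lower, with an all-gene median of 0.01. The 24 genes 2-fold higher in the pairing on total UMIs alone had been chosen from largely the same positive cells. That all 24 were above 0 here is therefore no separate check. Of them, 8 stayed 2-fold higher: Hbb-bs, Alb, Ly6d, Gm3776, Ltb, Reg1, Sval1 and Gsta1. New to the group were the lipid carrier Apoa4, the defensin Defa21, Rbp2 and Gm13305. Apoa4 had 618 against 96 UMIs in 53 and 61 cells, with 48.9% of positive UMIs in 1 cell, and in the pairing on total UMIs alone it was lower in positive cells, at -0.33. The genes lowest within clusters were Reg3b, Spry2, Pak3, Ifi47, Thbs1 and Stk32a, between -0.69 and -0.84. Of these, Spry2, an inhibitor of growth factor signalling, had 46 UMIs in 43 cells against 85 in 75.

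In the enteroendocrine-like clusters alone, with 277 pairs, 10 of 7690 genes (0.13%) were at least 2-fold higher and 1 (0.013%) lower. The higher genes were Hbb-bs, Alb, Rnase1, Nupr1, Ang4, Spink4, Guca2a, Mmp7, 3110004A20Rik and Guca2b, several of them products of Paneth, goblet or surface cells. The share of positive UMIs in the highest single cell ran from 48.8% for Guca2b to 97.4% for Hbb-bs, except for Ang4 at 24.9% and 3110004A20Rik at 17.6%. The Paneth list summed to 2965 CPM in positive and 2173 CPM in negative enteroendocrine-like cells and the goblet list to 8622 and 7601 CPM; their part in these ratios was not tested. AA467197 was the lower gene, with 33 against 75 UMIs. Lgals3 was level here, with 63 against 58 UMIs, and the lists of endocrine transcription factors, granins and hormones had medians of 0.00, -0.01 and -0.09. The S phase list summed to 603 and 589 UMIs and the mitosis list to 75 and 78.

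Within cluster 9, 32 pairs could be made. Lgals3 was found in all 32 cells of each side, at 1453 CPM (1398 to 1511) in positive and 787 (746 to 830) in negative cells. Bmi1 had 17 against 13 UMIs. Fabp1 and Rbp2 stood at 3918 against 559 and 1077 against 113 CPM, but 1 positive cell gave 59.5% and 51.9% of their UMIs, and Ccl6 stood at 3.38 against 62.1 CPM with 62.4% in 1 negative cell. The Paneth list summed to 1347 CPM in positive and 22140 CPM in negative cells of the cluster, and the goblet list to 1205 and 6883 CPM. The part of these markers in the values of cluster 9 was not tested.

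A stricter positive side gave larger medians for these lists on fewer cells. For 68 cells with at least 2 eGFP UMIs, paired with cells with none, Lgals3 stood at 696 against 189 CPM and Mcm6 at 63 against 12 UMIs, in 15 and 10 cells. The S phase median was 1.11 and that of regenerating epithelium 0.99, while the median over all genes was 0.31. The 2 sides of these pairs also differed in secretory genes. Defa21 had 11 against 496 UMIs, Pnliprp2 8 against 345, Reg3b 66 against 3287 and Ccl6 505 against 1418. The part of this difference in the medians was not tested. Bmi1 had 28 UMIs in 20 cells against 19 in 17, 13.5 CPM (8.99 to 19.6) against 9.19 (5.53 to 14.4), so the intervals overlapped. Of the 24 higher genes, 11 were still past 2-fold and 4 (Alb, Reg1, Gsta1 and Gm3776) were on the other side of 0, Gsta1 at -0.85.

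In the adult library without irradiation, eGFP was at 1.72 CPM and 44 of 1447 cells (3.04%) were positive. The same pairing counted 2494 genes over 44 pairs, of which 41 (1.64%) were at least 2-fold higher and 18 (0.722%) lower. The highest were the goblet cell genes Zg16, Muc2 and Clca1, followed by defensins. In these 3 goblet genes, 1 cell gave 99.8%, 94.2% and 100% of the positive UMIs, and in the defensin Defa29 86.9%. Of the tuft list, 9 genes were counted and all 9 were above 0, with a median of 1.51 and 7 past 2-fold. Dclk1 had 196 UMIs in 19 positive cells against 52 in 10 negative cells. The S phase list had a median of 0.02, with 3 of 5 above 0, and its member Tyms was 2-fold lower (36 against 78 UMIs). None of the 24 genes higher in positive cells of the irradiated library had enough UMIs to be counted there. At E17.5, 5 of the 24 were counted and 3 were on the same side of 0, with Reg1 past 2-fold. At E12.5, 8 were counted and 2 were on the same side, with 0 past 2-fold, and Alb was 2-fold lower. Of all genes counted, 12 of 4619 were 2-fold higher at E17.5 and 0 of 11782 at E12.5. Of the 4 lower genes, 2 were counted at E12.5. There Gast was 2-fold lower, as were 23 of all 11782 genes counted. In the irradiated library the Gast ratio rested mainly on 1 negative cell. Lgals3 had 37 UMIs in 19 positive adult cells and 55 in 12 negative ones, and Ly6d had 0 on both sides. Bmi1 had 14 against 9 UMIs in the adult pairs, 23 against 19 at E17.5 and 512 against 531 at E12.5, where 1437 of 3510 cells were positive. The 4 libraries differ in depth, and whether the contrast differs between them was not tested.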

How the data were processed

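Single-cell RNA libraries were made with 10x 3' reagents of v3 chemistry, per the labels' protocols. The submitters' processing notes name Cell Ranger 3.1.0 and the mm10 build. The authors deposited raw UMI counts per gene and barcode, with no normalization, and the deposited feature and barcode lists pair rows and columns with names. The irradiated adult matrix held 5996 barcodes, of which 2565 had at least 5000 UMIs and 2135 met the filter (38961686 UMIs, median 12829).

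Counts were summed over cells and divided by their total (CPM). Genes with at least 100 UMIs over both sides were counted, with a pseudocount of 1 CPM. Levels carry exact Poisson and shares exact Clopper-Pearson 95% intervals, and a count of 0 allows 3 counts. Molecules of 1 cell are not independent of each other, so the intervals are too narrow for cells. Clusters came from 2000 variable genes, 30 principal components, 20 neighbours and Leiden resolution 1 (scanpy 1.11.5, leidenalg 0.10.2, igraph 0.11.9), without eGFP and Bmi1. A class name needed 1 in 3 of its markers; these naming thresholds were set after the clusters had been seen. Scrublet's automatic threshold called 0.0314% of barcodes, so the highest scores were taken at 0.8% per 1000 barcodes; these putative doublets were kept in the main comparison and removed in an alternative.

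Named genes are the 12 highest and 12 lowest with a UMI in 10% of cells of the higher side (6 and 6 within clusters), leaving out predicted genes and those of mitochondria, ribosomes, haemoglobins, immunoglobulins and the sex chromosomes' marker genes. All genes past 2-fold, and members of 28 lists, are named besides; some were picked after their values were seen. The members and lists were chosen with earlier results of these data known. Of the lists not described in the report, the medians were 0.02 for regulated exocytosis, -0.02 for nutrient receptors and 0.12 for enterocyte genes. They were 0.07 for DNA repair, 0.24 for Notch, 0.06 for immediate early and 0.22 for epithelial genes. Mesenchymal, endothelial and neuronal lists, with 1, 3 and 2 genes counted, summed to 186 and 183, 26.6 and 28.4, and 38.3 and 42.7 CPM in positive and negative cells. The script was checked on simulated counts with known fold changes, which is no test of the contrast. Alternatives were 20 settings listed beforehand and 3 added after seeing the data, among them edgeR 4.0.16 TMM factors (R 4.3.3). Sums and intervals were made in pandas 2.3.3, scipy 1.17.1 and numpy 2.4.6 under python 3.11.15.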

Additional observations from a re-analysis of the deposited data

Results flagged for a closer look

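Barcodes of the irradiated adult library under 5000 UMIs enter no comparison above, yet they held reporter transcripts at 8.55 CPM (6.57 to 10.9; 63 of 3431 barcodes with an eGFP UMI). In the adult library without irradiation, barcodes of that range held 1.68 CPM (0.976 to 2.68; 17 of 4563).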

How the results depend on the processing

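The count of genes at least 2-fold higher (24) lay within 1.5 times of itself under 9 settings and moved under the rest. It was 65 without pairing, 12 with pairs within clusters, 10 with every cell weighted equally, 7 with a pseudocount of 10 CPM, 55 and 7 with minimums of 20 and 500 UMIs, 38 at 10% mitochondrial UMIs, 159 with positive cells at 2 eGFP UMIs and 0 with cells thinned to 5000 UMIs, where 2323 genes were counted. The count of lower genes (4) was 9 with pairs within 1%, 2 with bins of total UMIs, 0 within clusters, 1 at a pseudocount of 10 CPM, 24 and 0 at the 2 minimums, 8 without gene and mitochondrial filters, 42 at 2 eGFP UMIs and 15 after thinning. Of the settings chosen after seeing the data, leaving out cells over 50000 UMIs gave 14 and 31, the highest cell of each gene 14, and cluster 9 left 6 higher.

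Within clusters the higher count (12) became 7 with pairs within 1%, 29 and 5 at the 2 minimums, 28 at 2 eGFP UMIs, 23 without putative doublets and 6 without cluster 9. The lower count (0) became 6, 14, 27 and 2 under pairs within 1%, the minimum of 20, 2 eGFP UMIs and doublet removal, 2 with equal weight, 1 at a pseudocount of 0.1 CPM, 1 at 10000 UMIs per cell, 4 at 10% mitochondrial UMIs, 2 and 3 at Leiden resolutions 0.5 and 2, 12 without cells over 50000 UMIs and 1 without the highest cell. In the adult library the higher count (41) was 15 at the minimum of 500, and the lower count (18) was 31 with equal weight, 2 at the minimum of 500 and 8 without cells over 50000 UMIs.

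The positive share was 19.6% without thinning and 2.81% at 2000 UMIs. Enteroendocrine-like cells were 65.1% of positive cells at resolution 2, and 74.7% of negative cells without pairing. Bmi1 had a log2 ratio of -0.32 without pairing, where the all-gene median was -0.12. The S phase median was 1.11 at 2 eGFP UMIs and 0.20 without cluster 9. The regenerating epithelium median was 0.28 within clusters, 0.28 with equal weight, 0.99 at 2 eGFP UMIs, 0.19 thinned, 0.26 without cells over 50000 UMIs and 0.10 without cluster 9. Gsta1 reversed to -0.16 with pairs within 1%, -0.85 at 2 eGFP UMIs, -0.57 without cells over 50000 UMIs and -0.45 without cluster 9, Serpinb5 to -0.042 without cluster 9 and Akr1b8 to -0.046 after thinning; the cause was not tested. The 692 further values cover only the genes of the naming rule and the G2 and mitosis list. Of these, 493 stayed inside the counting interval of the reported value and 193 left it. The 6 named above, of genes reported past 2-fold, changed sign. In all, 34 of the 692 were on the other side of 0, among them Isg15, Rbp2, Fabp1 and Ly6a as given in the report. Others, without cells over 50000 UMIs, were Maoa at -0.48 and Defa21 at -2.88. Genes past 2-fold that the naming rule left out are not in the 692. Among these, Ltb was on the other side of 0 in 5 of 21 settings. Cdc20 and Gast were so in 4 each, Il1rn and Reg1 in 2 each, and no other in more than 1. No paired analysis was possible because, with 1 library per group, no samples can be paired (the pairs in the report are of cells), and leaving out a library is not possible for the same reason.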
